A study of Caenorhabditis elegans with 2 samples.

Results

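Histone genes were taken as the protein-coding genes of *Caenorhabditis elegans* whose symbol is his followed by a number. There were 72 of them among 19973 protein-coding genes on the nuclear chromosomes (Ensembl release 115, assembly WBcel235, which is ce11). Ensembl gives 14 of these symbols to more than 1 gene, 36 genes in all, so genes are named here by the RefSeq symbol of the same WormBase ID, which is different for each of the 72. Of the 72, 67 had another histone gene within 5 kb and are called clustered, and 5 (*his-24*, *his-71*, *his-72*, *his-73* and *his-74*) were isolated.

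Whole hermaphrodites of strain OP195 were collected as L4 larvae, 56 hours after they had been synchronised as starved L1 larvae following bleaching, so all cell types of the animal were mixed. Their tagged RBR-2 had GFP and FLAG fused to the C-terminal end, described in one label as an insertion targeting *rbr-2*; the promoter that drives it is not given in the sources used here. Sheared chromatin was immunoprecipitated and sequenced (ChIP-seq) in 1 group of 2 biological replicates, with no other genotype, stage or treatment, and the labels disagree on the antibody, one naming GFP and another rbr-2. Binding was therefore described within this group, and no groups of animals were compared.

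RBR-2 belongs to the KDM5 family, enzymes that remove methyl groups from lysine 4 of histone H3, a modification found at the start of active genes. Most histone genes make the core histones H2A, H2B, H3 and H4 that package newly copied DNA. They lie in groups of near-identical copies, often as divergent pairs that share the DNA between their starts, and their mRNAs end in a stem-loop. A smaller set, such as genes for the H3 variant H3.3, is expressed outside DNA replication and makes ordinary mRNAs, often from genes with introns.

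Each deposited list gives regions with a summit and a signal, the peak caller's own measure of strength, which ranks regions within that list. The optimal list held 3442 peaks kept by the irreproducible discovery rate (IDR) step, which compares replicates, and these were the 3442 strongest regions of the pooled list of 30000. The replicate 1 and replicate 2 lists held 26742 and 28724 regions, peaks and background together, and from each the 3442 strongest were taken for comparison. A gene is called bound when an optimal summit lay within 500 bp of its annotated 5′ end. For 65 of the 72 histone genes that end is the start codon, with no annotated 5′ untranslated region. Peak lists hold no read counts, so depth is unknown. Signals of different lists are not on 1 scale, so each replicate's value is given without a mean or SD.

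RBR-2-GFP peaks lay at 15 of the 72 histone genes (20.8%, exact Clopper-Pearson 95% interval 12.2 to 32%), against 9.46% of all protein-coding genes. The 15 genes shared 10 distinct peaks, because 6 peaks lay between divergent histone genes and counted for both. The strongest of them was at the H4 gene *his-37*, which also had a second, weaker peak. The others were at 6 divergent pairs, at the H3.3 gene *his-72* and at the linker histone gene *his-24*. Among the 3442 strongest regions of replicate 1, 16 histone genes were bound, against 9.42% of all genes. In replicate 2 there were 14, against 9.05% of all genes. Intervals treat genes as independent and cover no error between cultures. Neighbouring histone genes share peaks and sequence, so the intervals given here and below are too narrow, and no test over genes was made.

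Of the clustered genes, 13 of 67 (19.4%, interval 10.8 to 30.9%) were bound, from 8 distinct peaks, and of the isolated genes 2 of 5 (40%, interval 5.27 to 85.3%) were bound, each by its own peak. Of all protein-coding genes, 9.46% were bound. Among the strongest regions of replicate 1 the same 2 isolated genes were bound, and among those of replicate 2 it was 1 of 5 (20%). The intervals overlap, which does not show that the shares are equal, and 5 isolated genes are too few to judge a difference. The same 67 and 5 genes were clustered and isolated when the distance was set at 2 kb or at 10 kb. By cluster, 5 of the 15 clusters, with 19 genes, held all 13 bound clustered genes, and 10 clusters with 48 genes held none. Genes of a divergent pair were bound together by a shared peak. Many clusters with no bound gene hold little unique sequence, as described next. The part of either in this pattern was not tested.

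The histone genes also differed from other genes in how much of their sequence is unique. Within 500 bp of the 5′ end, a median of 8.88% of the 50-base words of a histone gene window occurred once in the genome, compared with a median of 100% for all protein-coding genes. Windows with at least 90% unique words numbered 18 of 72 histone genes (25%), compared with 91.3% of all genes. Of those 18 histone genes, 12 were bound (66.7%, interval 41 to 86.7%), from 9 distinct peaks, against 9.94% of all genes with such windows. That background is not matched for gene arrangement: 11 of the 18 had a divergent histone partner, and 9 of these 11 were bound. Of all genes with a divergent coding 5′ end within 400 bp upstream, at any uniqueness, 28.9% were bound. Of the 54 histone genes with windows under 90% unique, 3 were bound (5.56%, interval 1.16 to 15.4%), against 4.44% of all genes with such windows. The 3 were *his-61* at 89.3%, *his-3* at 72.2% and *his-4* at 66.4% unique words. Their peaks lay between divergent genes, where 100% of the words were unique at both pairs. These 3 genes therefore do not show binding in repeated sequence. The *his-61* peak is also the one counted above for its partner *his-62*.

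Uniqueness also moved with the comparison of clustered and isolated genes. The median window was 6.72% unique for clustered genes and 100% for isolated genes. Among windows at least 90% unique, 10 of 14 clustered genes (71.4%, interval 41.9 to 91.6%) and 2 of 4 isolated genes (50%, interval 6.76 to 93.2%) were bound, beside 9.94% of all genes with such windows. The share was thus higher in clustered genes here, and the intervals again overlap. How reads with several equally good alignments were treated is not given in the sources used here. A read from a repeated window cannot be placed at 1 copy, so the absence of a region there does not show that the protein was absent, and the part of uniqueness in these counts was not tested.

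**Figure D1:**
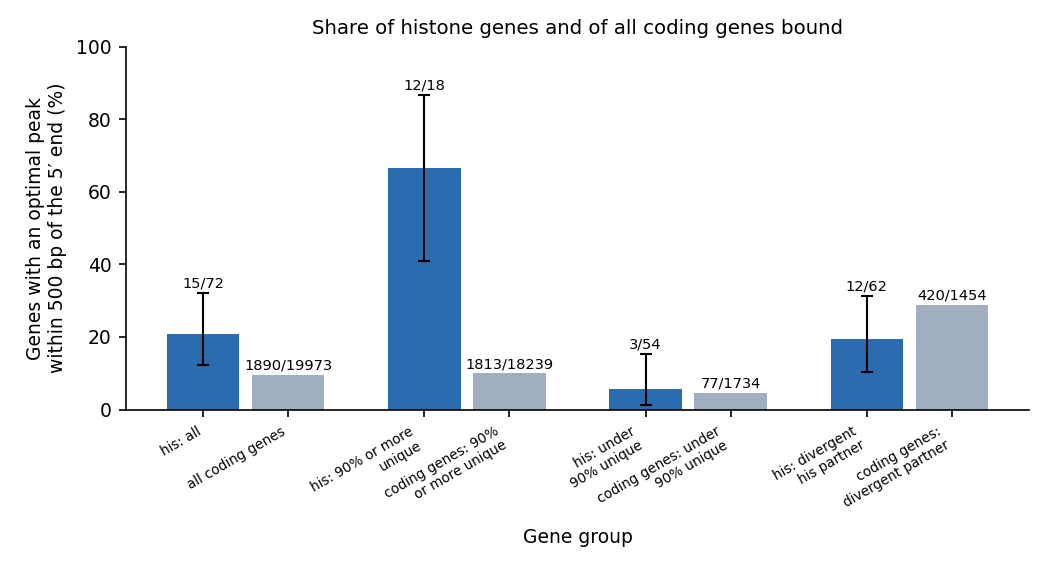
Share of genes with an optimal peak within 500 bp of the 5′ end (%), for histone genes (blue, with exact 95% intervals) and for protein-coding genes (grey), over all genes, by uniqueness of the window and for genes with a divergent partner. The bars for windows at least 90% unique stand farthest apart, at 66.7% of histone genes and 9.94% of all genes, while histone genes with a divergent partner sit at 19.4% and all such genes at 28.9%.

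The H4 gene *his-37* on chromosome V carried the strongest peak. Positions are given in bp from the 5′ end, negative upstream. Its summit at -101 had a pooled signal of 942 and rank 24 of 3442, above 99.5% of the 1513 optimal peaks that lie within 500 bp of a coding 5′ end. In replicate 1 the signal was 425 (rank 22) and in replicate 2 it was 524 (rank 24), so both replicates placed it at the same level. A second summit, at +100 in an overlapping region, had a pooled signal of 70.6 (rank 3119); replicate 2 listed it at 49.4 and replicate 1 did not list it. Unlike most H4 genes, *his-37* has an intron, yet the 16 H4 genes all encode the same protein of 103 amino acids. No other protein-coding 5′ end lay within 500 bp of either summit.

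The 250 bases upstream of *his-37* are shown because they hold the strongest histone peak, and those of *his-24*, the bound linker histone gene, for comparison. Both are read 5′ to 3′ on the plus strand of ce11 from the RefSeq assembly sequence, and capitals mark the word TGTCCCNGCAG, described further on.
his-37 upstream, chrV:9546855-9547104, plus strand: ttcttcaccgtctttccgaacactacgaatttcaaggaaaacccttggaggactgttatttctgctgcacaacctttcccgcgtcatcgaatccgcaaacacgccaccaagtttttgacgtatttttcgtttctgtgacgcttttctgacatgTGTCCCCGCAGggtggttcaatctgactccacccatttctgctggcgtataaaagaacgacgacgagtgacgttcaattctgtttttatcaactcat
his-24 upstream, chrX:14489844-14490093, plus strand: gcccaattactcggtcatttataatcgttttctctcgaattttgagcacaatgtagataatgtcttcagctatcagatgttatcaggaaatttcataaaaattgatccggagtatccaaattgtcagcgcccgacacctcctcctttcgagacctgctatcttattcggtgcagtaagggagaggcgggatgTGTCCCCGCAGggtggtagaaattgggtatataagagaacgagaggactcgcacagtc
The centre of the word lay 9 bp from the *his-37* summit and 34 bp from the *his-24* summit. The word was chosen for lying near summits at bound histone loci, these among them, so the distances support nothing.

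*his-24* encodes a linker histone of the H1 type, which binds DNA between nucleosomes. Its summit lay at -19 with a pooled signal of 132 (rank 1395). The signal was 52.7 (rank 1813) in replicate 1 and 71.7 (rank 1362) in replicate 2, inside the 3442 strongest of both. The summit also falls within the non-coding RNA gene *M163.19*, so binding at its start and at the *his-24* start cannot be told apart. The H3.3 gene *his-72* had a weaker peak, at -92 from its outer 5′ end and -978 from the start of a shorter transcript. Its pooled signal was 84.3 (rank 2484), with 53.5 (rank 1771) in replicate 1 and 35.9 (rank 3537) in replicate 2. Replicate 2 thus listed the *his-72* region too, but just outside its 3442 strongest.

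The other H3.3 genes were not bound, although every one of the 5 H3.3 windows was at least 98.8% unique. *his-69* had a weak pooled region, signal 22.3 (rank 17056), 296 bp inside the gene, *his-70* had a region in replicate 1 alone (13.2, rank 14586), and *his-71* and *his-74* had no region in any list. Near *his-74* the closest optimal summit lay 736 bp downstream of the annotated start, beyond the 3′ end of the gene (signal 160), and within 500 bp of the start of *ccch-3*. The last isolated gene, *his-73*, annotated as a histone domain protein of 46 amino acids, had no region and a window 86.2% unique.

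Core histone genes were bound at 6 divergent pairs. Of the 72 genes, 62 formed 31 such pairs, with 228 to 369 bp between the 5′ ends: 16 pairs of an H2A and an H2B gene, 14 of an H3 and an H4 gene and 1 of an H2A and an H4 gene. A pair of this kind had an optimal peak in 6 cases, a weaker region of the pooled list in 3 and no pooled region in 22. Counted by gene, 12 of 62 were bound (19.4%, interval 10.4 to 31.4%), compared with 28.9% of all genes that have another coding 5′ end divergent from them within 400 bp upstream. Chromatin fragments from the space between a pair cannot be assigned to either gene, so the values below belong to the pair.

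The pair *his-67* and *his-68*, an H4 and an H2A gene on chromosome I, had the strongest pair signal, 272 in the pooled list (rank 373), with 114 (rank 490) in replicate 1 and 166 (rank 289) in replicate 2. *his-61* and *his-62* on chromosome IV, H2A and H2B genes, had 178 (rank 860), with 80.9 (rank 926) in replicate 1 and 95.4 (rank 847) in replicate 2. At both loci the ranks in the replicates were close to the pooled rank.

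The H4 and H3 pair *his-31* and *his-32* had 155 in the pooled list (rank 1075), with 49.4 (rank 1981) in replicate 1 and 105 (rank 712) in replicate 2. The other H3 and H4 pair with an optimal peak, *his-60* and *his-59*, had 123 (rank 1549), with 40.6 (rank 2568) in replicate 1 and 82.1 (rank 1090) in replicate 2. Both pairs ranked higher in replicate 2 than in replicate 1.

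Among H2A and H2B pairs, *his-35* and *his-41* had 95.8 in the pooled list (rank 2146), with 50.4 (rank 1926) in replicate 1 and 50 (rank 2259) in replicate 2. *his-4* and *his-3* had 89.7 (rank 2330), with 52.1 (rank 1841) in replicate 1 and 37.3 (rank 3355) in replicate 2, close to the limit of the 3442 strongest. Each of the 6 pairs was thus within the 3442 strongest regions of both replicates.

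**Figure D2:**
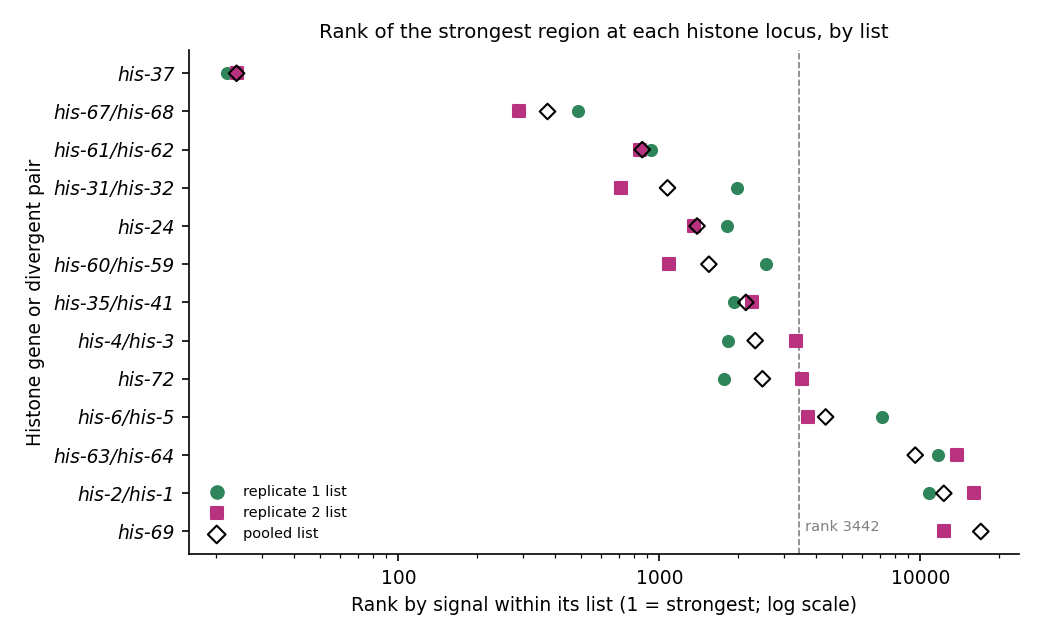
Rank of the strongest region at each histone locus (log axis, 1 = strongest) in the replicate 1 list (circles), the replicate 2 list (squares) and the pooled list (open diamonds); the dashed line is rank 3442. *his-37* sits at ranks 22 and 24, and *his-72* falls on both sides of the line, at 1771 in replicate 1 and 3537 in replicate 2.

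The weaker pooled regions were at 3 H3 and H4 pairs. *his-6* and *his-5* had a pooled signal of 53.9 (rank 4338), with 19.8 (rank 7165) in replicate 1 and 34.6 (rank 3709) in replicate 2. *his-63* and *his-64* had 31.8 (rank 9563), with 15 (rank 11719) in replicate 1 and 15.8 (rank 13858) in replicate 2. *his-2* and *his-1* had 27.5 (rank 12308), with 15.6 (rank 10814) in replicate 1 and 14.6 (rank 16004) in replicate 2. For comparison, the weakest optimal peak had 65.2, so *his-6* and *his-5* stood closest to it. Bound pairs also had weaker pooled summits besides their peak, 33.6 (rank 8725) at +133 of *his-41* and 29 (rank 11175) at +442 of *his-31*, that is downstream of a gene start and not between the genes.

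Counting any region of the pooled list, 22 of the 72 histone genes had one within 500 bp, against 33.1% of all genes, so at this lower threshold histone genes did not stand above the background. In windows at least 90% unique the count was 14 of 18, against 34.8% of all genes with such windows. In the others it was 8 of 54, against 15.2%. Of the 50 histone genes with no pooled region, 46 had windows under 90% unique.

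The split was sharper between the genes of a pair. Counting the 50-base words between the 5′ ends of each pair, 10 pairs were at least 90% unique, of which 6 had an optimal peak, 3 a weaker region and 1, *his-38* and *his-40* on chromosome X, none. The other 21 pairs had no pooled region within 500 bp of either gene. One of these, *his-8* and *his-7*, was 85.6% unique and the rest at most 23.9%. This division depends on the word length, which was changed after the data had been seen: with 36-base words 8 pairs were at least 90% unique and 2 of the other 23 had a pooled region, and with 100-base words 11 pairs were at least 90% unique and none of the other 20 had one.

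**Figure D3:**
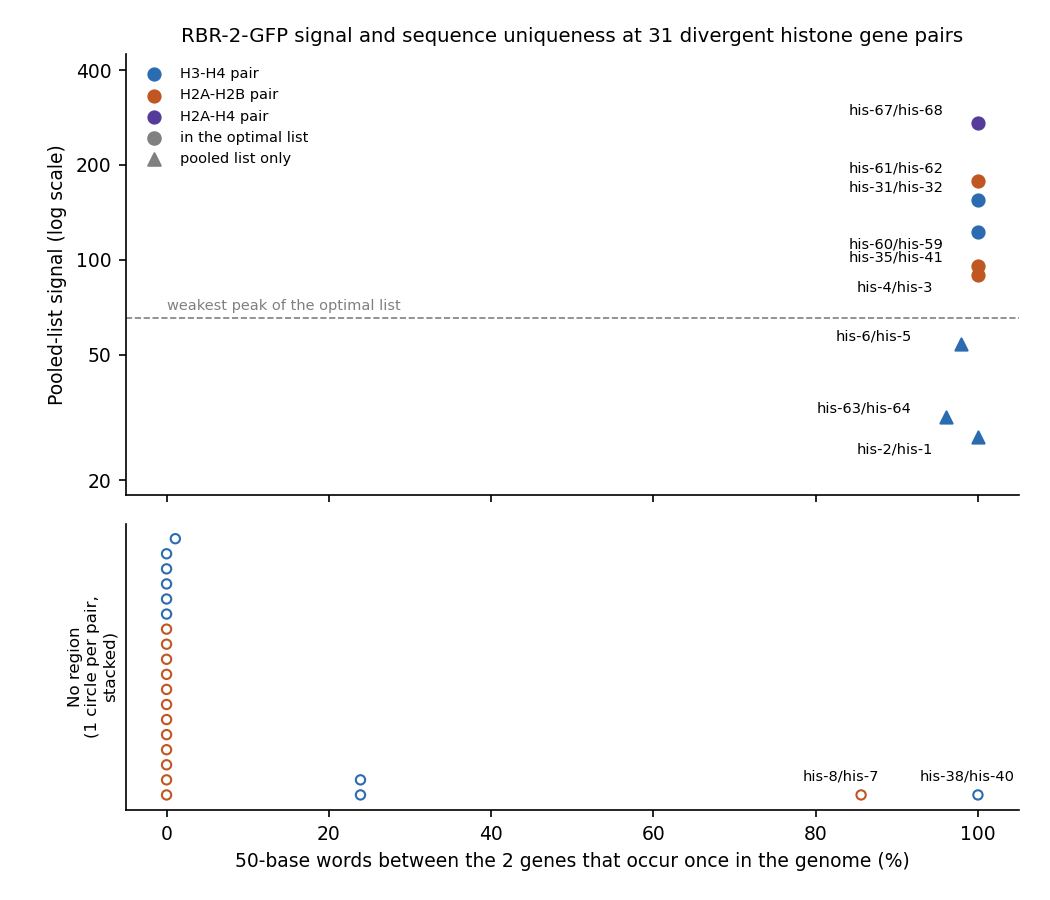
Pooled-list signal (log axis) against the share of 50-base words between the 5′ ends that occur once in the genome (%), for the 31 divergent pairs coloured by histone class; open circles below are pairs with no pooled region. All 9 pairs with a region lie at 96.1% or above, and of the 22 pairs without one, 20 lie at 23.9% or below.

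Many pairs without a region are copies of one another. The 31 pairs held 21 distinct sequences between their 5′ ends, and 16 pairs were exact copies, in 6 groups. The largest group was 4 H2A and H2B pairs on chromosome V (*his-51*/*his-52*, *his-53*/*his-54*, *his-21*/*his-22* and *his-19*/*his-20*). On chromosome II, 13 histone genes lay in 1 cluster with a median window uniqueness of 0%, and none had a pooled region within 500 bp. The clustered H3 gene *his-42* at its edge had a replicate 1 region at -493 (46.6, rank 2146), and 2 optimal summits lay outside the window, at -575 and -844, with signals of 97.3 and 96.6. The whole set of 7 clusters with no pooled region within 500 bp held 39 genes.

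Some bound, weakly listed and unlisted pairs have similar sequences between their 5′ ends, each at least 96.1% unique there. Their wider gene windows differed in uniqueness. The windows were 94.1% and 95% unique at *his-60* and *his-59*, and 45.8% and 66.9% at *his-63* and *his-64*. They were 55.4% and 65.7% at *his-6* and *his-5*, 80.6% and 91.3% at *his-2* and *his-1*, and 91.7% and 82.2% at *his-38* and *his-40*. The part of read placement in the signals given next was not tested. The *his-59* and *his-63* sequences below are 85.5% identical in a global alignment (columns with gaps counted as differences), with pooled signals of 123 and 31.8. The *his-6*, *his-2* and *his-40* sequences are 88.1 to 89.9% identical to each other, with pooled signals of 53.9 and 27.5 and no region at *his-40*. The *his-16* sequence, present in 3 exact copies with no region, stands for the repeated pairs. The 201 bases around the *his-61* and *his-62* summit show a strong H2A and H2B pair. Each is written from the H3 or H2A gene towards the H4 or H2B gene, 5′ to 3′, in ce11 (RefSeq), with capitals for the word TGTCCCNGCAG and for the shorter words GGCGGAG and TGCGGTG, on either strand.
his-59 to his-60, chrIV:7487993-7488248, minus strand: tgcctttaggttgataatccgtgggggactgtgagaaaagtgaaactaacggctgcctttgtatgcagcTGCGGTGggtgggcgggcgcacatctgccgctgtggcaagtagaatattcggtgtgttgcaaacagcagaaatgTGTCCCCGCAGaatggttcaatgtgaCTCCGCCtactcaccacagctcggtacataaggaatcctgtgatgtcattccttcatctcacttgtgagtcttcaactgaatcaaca
his-63 to his-64, chrIV:11406862-11407115, plus strand: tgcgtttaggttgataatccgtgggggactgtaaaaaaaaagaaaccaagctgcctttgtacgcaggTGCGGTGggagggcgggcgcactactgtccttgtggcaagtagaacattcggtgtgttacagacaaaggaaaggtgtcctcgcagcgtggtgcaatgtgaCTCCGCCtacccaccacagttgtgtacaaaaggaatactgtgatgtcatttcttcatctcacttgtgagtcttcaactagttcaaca
his-6 to his-5, chrV:8534978-8535213, plus strand: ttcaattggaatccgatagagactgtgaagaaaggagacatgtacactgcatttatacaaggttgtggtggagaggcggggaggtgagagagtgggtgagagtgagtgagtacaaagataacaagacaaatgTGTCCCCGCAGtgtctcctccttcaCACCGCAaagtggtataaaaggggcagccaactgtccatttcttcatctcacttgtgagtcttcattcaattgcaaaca
his-2 to his-1, chrV:16042284-16042519, plus strand: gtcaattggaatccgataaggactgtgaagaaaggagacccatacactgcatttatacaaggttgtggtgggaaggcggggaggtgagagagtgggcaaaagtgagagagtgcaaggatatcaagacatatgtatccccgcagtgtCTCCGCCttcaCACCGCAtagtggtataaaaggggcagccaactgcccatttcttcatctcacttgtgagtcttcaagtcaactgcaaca
his-40 to his-38, chrX:7309876-7310109, minus strand: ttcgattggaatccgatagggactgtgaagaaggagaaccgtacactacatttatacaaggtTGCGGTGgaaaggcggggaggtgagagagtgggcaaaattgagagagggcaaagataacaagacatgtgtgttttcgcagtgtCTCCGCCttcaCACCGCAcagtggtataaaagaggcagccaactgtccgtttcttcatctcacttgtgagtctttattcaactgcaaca
his-16 to his-15, chrII:13818144-13818370, plus strand: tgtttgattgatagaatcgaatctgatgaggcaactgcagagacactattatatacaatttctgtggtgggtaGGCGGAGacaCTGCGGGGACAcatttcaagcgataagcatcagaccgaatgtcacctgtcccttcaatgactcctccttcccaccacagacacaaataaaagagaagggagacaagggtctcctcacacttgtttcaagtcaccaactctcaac
his-61 to his-62 around the summit, chrIV:7486291-7486491, plus strand: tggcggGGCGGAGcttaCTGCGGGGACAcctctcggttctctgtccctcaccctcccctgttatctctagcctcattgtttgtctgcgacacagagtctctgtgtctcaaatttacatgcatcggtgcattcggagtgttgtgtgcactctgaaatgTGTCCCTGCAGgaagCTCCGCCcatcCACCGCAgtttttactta

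The words GGCGGAG and TGCGGTG were the 7-base words found in the most unique pairs, 8 of 10 each on either strand. Within 250 bases upstream of the 5′ end, GGCGGAG occurred at 61.1% of histone genes and 4.2% of all protein-coding genes, and TGCGGTG at 62.5% of histone genes and 1.41% of all genes. The words were chosen for being common in these pairs and exact copies count more than once, so the higher shares at histone genes follow from the choice and support nothing. Neither separated bound from unbound unique pairs: GGCGGAG stood in 5 of 6 pairs with an optimal peak and 3 of 4 others, and TGCGGTG in 4 of 6 and in 4 of 4 others. The TATA-box sequence TATAAA, which was also searched on both strands, occurred upstream of 65.3% of histone genes and 35.2% of all genes, in 5 of 6 optimal and 3 of 4 other unique pairs.

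The longer word TGTCCCNGCAG is the 11-base word with 1 free base that stood within 100 bp of the strongest summit at the most bound loci, 7 of 9. Among 4 tied words it was upstream of the fewest genes. The rule was written after the sequences had been seen, and it used the bound loci and their summits. The word's counts are thus a description with no test. Its frequency among bound genes and its closeness to their summits support nothing. It occurred, on either strand, within 250 bases upstream of 30 of the 72 histone genes (41.7%) and of 5 other protein-coding genes, 0.175% of all genes in total. Those 5 genes were *ret-1*, *K07C5.13*, *ltah-1.2*, *fbxb-107* and *hil-2*, the last of which encodes a linker histone. Among histone genes it stood upstream of 12 of 15 bound genes and 18 of 57 unbound ones, 16 of which had no pooled region. With windows at least 90% unique, it stood upstream of 9 of 12 bound genes and 0 of 6 unbound ones (*his-1*, *his-38*, *his-69*, *his-70*, *his-71* and *his-74*). This contrast is built into the choice of the word from bound loci. Among the unbound genes, *his-69*, *his-70*, *his-71* and *his-74* are H3.3 genes, so histone class differs too. The unbound *his-6* and *his-5* hold the word but are not counted here, since their windows are 55.4% and 65.7% unique.

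The bound exceptions without the word were *his-72* and the pair *his-35* and *his-41*. Of the 10 unique pairs, 5 of the 6 with an optimal peak and 1 of the 4 others (*his-6* and *his-5*) held it. Of the 10 optimal summits, 8 had the word within 250 bp, its centre 3 to 62 bp away at 7 of them and 192 bp away at the second *his-37* summit. The rule asked for a word within 100 bp of the strongest summit, so this closeness follows from the choice. Between the similar pairs printed above, the word stands at *his-59*, a bound locus used in the choice, and not at *his-63*. Across the optimal list, 14 of 3442 summits had the word within 250 bp, 8 of them at histone genes, where the word was chosen. A word is a match of letters and not a shown binding site, and whether it bears on the peaks was not tested.

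The optimal summits at the 6 pairs lay between the 2 genes. In the 6 optimal pairs the summit was 10 to 55 bp from the midpoint between the 5′ ends. For the 10 distinct optimal peaks the median position was -106 from the nearest histone gene 5′ end, with a range of -154 to 100. The 1513 optimal peaks at any coding 5′ end had a median position of -159. At a pair the nearer of 2 starts 228 to 369 bp apart was used, which limits how far upstream a summit between them can lie. For 65 of the 72 histone genes the 5′ end is the start codon, so the 2 medians are not a like comparison. Median signals were 128 at histone genes and 123 at all coding 5′ ends.

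**Figure D4:**
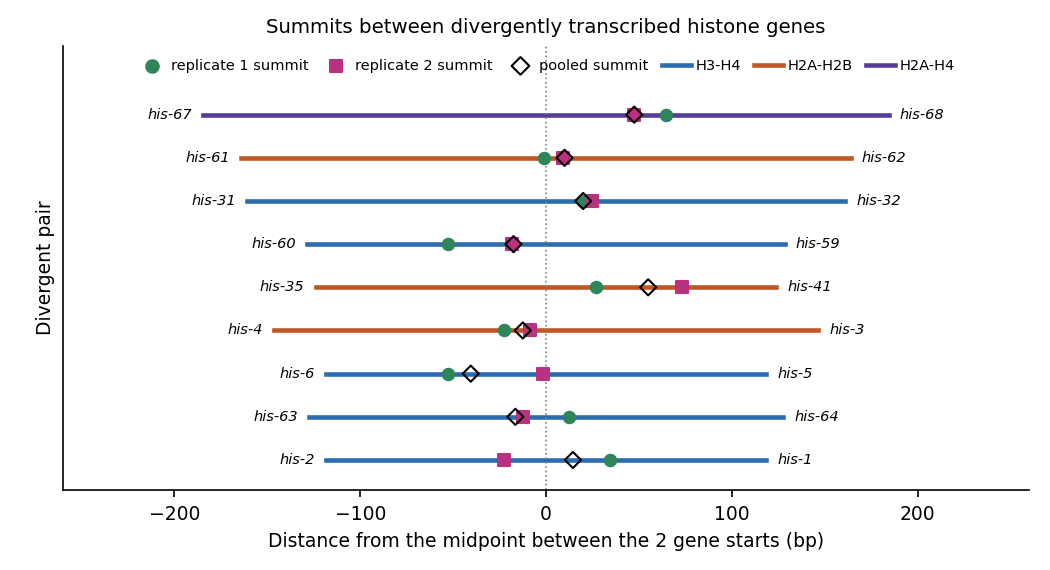
Summits in the replicate 1 list (circles), the replicate 2 list (squares) and the pooled list (open diamonds) that fall between the 5′ ends of divergent histone gene pairs, as distance from the midpoint of the 5′ ends (bp); each line spans the 5′ ends and is coloured by histone class. Summits lie within 73 bp of the midpoint in every list shown, with *his-35*/*his-41* farthest.

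By histone class, 4 of 17 H2A genes, 3 of 16 H2B genes, 2 of 15 H3 genes, 4 of 16 H4 genes and 1 of 5 H3.3 genes were bound, and of the 3 others *his-24* was, beside 9.46% of all protein-coding genes. The intervals for these shares overlap throughout, which does not show that the shares are equal. Among windows at least 90% unique, both H2A, both H2B, both H3, 4 of 6 H4 and 1 of 5 H3.3 genes were bound, beside 9.94% of all genes with such windows.

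By exon number, 5 of 8 genes with more than 1 exon (62.5%, interval 24.5 to 91.5%) and 10 of 64 genes with 1 exon (15.6%, interval 7.76 to 26.9%) were bound, beside 9.46% of all genes. The intervals overlap only between 24.5 and 26.9%, which does not show that the shares are equal, and no test was made. The 5 were *his-24*, *his-35*, *his-37*, *his-41* and *his-72*. Among windows at least 90% unique, 5 of 7 genes with more than 1 exon and 7 of 11 with 1 exon were bound, beside 9.94% of all genes with such windows, so the counts lay close together there.

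The stem-loop that ends replication-dependent histone mRNAs was looked for in the 200 bases after the stop codon. The pattern was a 6-base stem of the form GGNNNT, a 4-base loop and the exact complement of the stem. It was found at 57 genes, of which 9 were bound, and not found at 15, of which 6 were bound, beside 9.46% of all genes. In windows at least 90% unique, 6 of 8 genes with a stem-loop and 6 of 10 without were bound, beside 9.94% of all genes with such windows. Genes with and without a match thus both carried peaks where the sequence is unique. A missing match does not define a kind of histone gene. The genes without one include *his-68*, *his-47*, *his-53* and *his-19*, core histone genes with 1 exon in divergent pairs, and *his-68* was bound.

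Other genes of the histone supply system were examined as named lists. Of 11 linker and variant histone genes outside the his names, 2 were bound (18.2%): *hil-3*, an H1-type gene, at 106 (rank 1910), and *htz-1*, the H2A.Z gene, at 352 (rank 216), whose window also holds *wapl-1*. Of 8 genes on a list named for histone mRNA 3′-end processing, 2 were bound (25%). They were *cdl-1*, the stem-loop binding protein gene, at 79.2 (rank 2697), and *cids-2* at 192 (rank 736). A second peak at *cids-2*, at 132, has *phip-1* in its window too. Whether *cids-2* acts on histone mRNAs in particular was not examined. Of 15 histone chaperone genes, 5 were bound (33.3%), against the 9.46% of all genes given above. They were *lin-53*, an RbAp48-type histone-binding protein gene, at 395 (rank 171), *unc-85*, an ASF1 gene, at 190 (rank 752), *chaf-2* of the CAF-1 complex at 138 (rank 1319), *nap-1* at 126 (rank 1491) and *hmg-4* of the FACT complex at 71.5 (rank 3059). For 4 of these 5, *unc-85* being the exception, another protein-coding 5′ end lay within 500 bp of the same summit, and each list holds too few genes for a comparison with the histone genes.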

How the data were processed

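RBR-2-GFP ChIP-seq of whole L4 hermaphrodites was deposited as peak lists for 2 replicates, for both pooled, and for an optimal list, in ce11 and ce10; the ce10 lists were not used. Per the text deposited with the files, the replicate and pooled lists were called against a control and hold peaks with background regions, and the optimal list passed IDR. No source used here names the aligner, peak caller, IDR threshold or read length. The deposited signal value is the peak caller's score of strength, made by the authors; it served for ranking within each list. Summits (region start plus the deposited offset, made 1-based) were placed on Ensembl release 115 genes and sequence was read from the RefSeq assembly of WBcel235.

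Summits within 500 bp of a 5′ end, distances between genes, unique 50-base words on both strands (at least 90% counted as unique) and Biopython 1.88 global alignments were computed in Python 3.11.15 (numpy 2.4.6, pandas 2.3.3, scipy 1.17.1, matplotlib 3.10.9). Summits shared by divergent genes were counted once as peaks. Counting was checked on simulated summits with known answers. No test was made over genes, since members share peaks and sequence. With 2 replicates, values from each replicate are given in place of a spread. The named genes were all bound his genes, the 5 strongest weaker pooled regions and the bound members of 3 related lists. Members, lists and words were chosen with earlier results of these data known, and the rule for the 11-base word was written after the sequences had been seen. Alternatives were windows of 250 and 1000 bp, the nearest gene alone, the stronger 50% of peaks, each replicate alone, all transcript starts, cluster distances of 2 and 10 kb, unique windows alone, and words of 36 and 100 bases, the last added after the data were seen.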

Additional observations from a re-analysis of the deposited data

How the results depend on the processing

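Of 53 alternative values over 12 settings, 44 were labelled unchanged. Counts had to stay within 1.5 times the original, and shares within its exact interval. For positions the limit was the SD between the medians of the single-replicate lists, which is not a spread of the original. The interval for isolated genes, given above, is so wide that every alternative share fell inside it. The number labelled unchanged is therefore not a measure of robustness. Assigning each peak to its nearest gene alone left 9 bound histone genes and 10.4% of clustered ones, because a peak between divergent genes then counts once. The stronger 50% of the optimal list left 6 distinct peaks, with a median position of -124 bp. With a 1000 bp window the median position was -111 bp, and 17 genes (*his-42* and *his-74* added) and 15 peaks counted. Windows at least 90% unique gave 71.4% bound for clustered genes and 14 genes with a pooled region, from fewer genes. The median position was between -110 and -108 bp in the lists without one replicate, in each of which 14 or 16 histone genes were bound, from 9 or 10 peaks. The signal median has no value there, since signals of different lists are not on 1 scale. No paired analysis was possible because the result comes from no test between groups. Depth is unknown, so the weakest region each library could show is unknown too.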
